A study of Mus musculus with 30 samples.

Results

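Chga, 6330403K07Rik, Rbpjl, Foxa3 and Ppp1r1b are 5 of the 43629 genes in a table of RNA-seq read counts from mouse fracture callus. They were chosen by their strong rise on day 5 or 7 (d5, d7) against d3 in lean mice, as seen in earlier results of the same data, so their lean values on d3, d5 and d7 are given as a description and were not tested. The rule carried no numeric limit. In the 12 lean libraries the rise by d5 placed Foxa3 at rank 3, Ppp1r1b at rank 4, Chga at rank 8, 6330403K07Rik at rank 10 and Rbpjl at rank 42 of 16471 genes, so that 37 other genes rose by more than Rbpjl.

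The callus came from the right tibia of male C57BL/6J mice, 20 weeks old at an open osteotomy held by an intramedullary nail. DIO (diet-induced obese) mice had been kept on a high-fat diet and Lean mice on a low-fat control diet. Each group held 3 mice, giving 30 libraries. The 12 Lean libraries covered d3 to d10 in 4 groups, and the 18 DIO libraries covered 6 groups, the same days plus d14 and d21. No later Lean day entered the comparisons. Whole callus was sequenced, so fewer cells of a type and less RNA per cell cannot be told apart.

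A tibial fracture heals largely through cartilage. Progenitors become chondrocytes that lay down a soft callus, these enlarge into hypertrophic chondrocytes, and bone then replaces the cartilage. The named genes are better known from other organs. Chga encodes chromogranin A, an acidic protein of the dense-core granules in which neuroendocrine cells store hormones. Rbpjl encodes a relative of the Notch effector RBPJ that works with PTF1A in the acinar cells of the pancreas. Foxa3 encodes a forkhead transcription factor of liver and gut, and FOXA2 and FOXA3 are also known in chondrocyte hypertrophy. Ppp1r1b encodes an inhibitor of protein phosphatase 1 that is switched on by protein kinase A and is abundant in striatal neurons.

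On GRCm38, Chga (ENSMUSG00000021194) lies on chromosome 12 from 102554969 to 102565028 on the plus strand, with 8 exons. 6330403K07Rik (ENSMUSG00000018451) is a protein-coding gene on chromosome 11 from 71031941 to 71033513 on the minus strand, with 2 exons. Foxa3 (ENSMUSG00000040891) lies on chromosome 7 from 19013284 to 19023538 on the minus strand, with 2 exons. None of these 3 overlapped another annotated gene. Rbpjl (ENSMUSG00000017007) lies on chromosome 2 from 164403141 to 164415448 on the plus strand, with 10 exons, and 149 of its 5732 exon bases (2.6%) lie opposite exons of Matn4, a cartilage matrix gene. Ppp1r1b (ENSMUSG00000061718) lies on chromosome 11 from 98348404 to 98357796 on the plus strand, with 9 exons, and 460 of its 2928 exon bases (15.7%) lie opposite 1700003D09Rik. The strand setting of the counting was not given in the sources used here, so reads from opposite strands of these stretches could not be told apart. 1700003D09Rik held 3 counts in all 30 libraries together, against 5305 counts for Ppp1r1b.

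RefSeq promoter sequence (GRCm38.p6) was found for 4 of the 5 genes. The stretches before the transcription start are shown for Foxa3 and Rbpjl, whose log2 levels correlated at r = 0.83 over the 18 DIO libraries, and for Chga, whose levels correlated with Foxa3 at r = 0.64. Foxa3 is chr7:19023540-19023789 on the minus strand, Rbpjl is chr2:164402944-164403080 on the plus strand and Chga is chr12:102554691-102554940 on the plus strand. Capitals mark matches, on either strand, to any of 8 short motifs named after the sequences.
Foxa3: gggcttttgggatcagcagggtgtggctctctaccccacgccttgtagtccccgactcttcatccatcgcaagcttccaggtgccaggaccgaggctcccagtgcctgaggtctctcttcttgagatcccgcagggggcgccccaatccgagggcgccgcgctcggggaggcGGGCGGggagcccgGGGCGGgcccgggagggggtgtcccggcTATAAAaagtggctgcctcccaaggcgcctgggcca
Rbpjl: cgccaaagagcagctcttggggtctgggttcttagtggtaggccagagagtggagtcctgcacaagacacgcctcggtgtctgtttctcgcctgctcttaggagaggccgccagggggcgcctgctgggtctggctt
Chga: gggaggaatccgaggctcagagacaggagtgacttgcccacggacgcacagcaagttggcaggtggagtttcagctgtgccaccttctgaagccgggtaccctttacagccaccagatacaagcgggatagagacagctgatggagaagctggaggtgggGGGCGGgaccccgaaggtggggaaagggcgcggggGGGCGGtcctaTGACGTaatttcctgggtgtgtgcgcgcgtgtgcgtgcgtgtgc

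The search covered TATAAA, the TATA box that places the start of transcription. It also covered GGGCGG, the GC box bound by SP1, and TGACGT, the core of the cAMP response element. FOXA motifs were spelled TGTTTAC or, in a second form, TGTTTGC. RBPJ was searched as TGGGAA, SOX factors as ACAAAG and RUNX factors as TGTGGT. No matches overlapped. Foxa3 held TATAAA from 36 bases before its start, a motif found in 12.4% of 32851 promoters over 250 bases, and GGGCGG at 78 and 64 bases, found in 32.7%. Chga held TGACGT from 44 bases before its start, found in 6.47% of promoters, and GGGCGG at 90 and 55 bases. The cAMP response element of the Chga promoter is a textbook control element of that gene in neuroendocrine cells. The Rbpjl stretch of 137 bases and the 250 bases of 6330403K07Rik held none of the 8. The motifs without a match in these windows occurred in 3.17% and 4.3% of promoters for the FOXA forms in the order above, in 21.6% for RBPJ, 16.5% for SOX and 14% for RUNX. A match is a match of letters, and no binding was measured.

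Libraries held between 13247122 and 26365620 counts, so that 3 counts, taken as the limit of detection, equalled 0.108 to 0.230 CPM (counts scaled to a library of 1000000, with TMM factors). Intervals and limits of this kind cover counting error only. Lean d10 mouse 1 stood apart from the other libraries of its group, with a mean correlation of 0.944 to them, against 0.957 to 0.984 for every other library and its group, and with 88460 CPM in 20 cartilage genes against 18179 and 21171 CPM in the other two. The Lean d10 means and the diet differences of d10 are given with and without it. Chga was under 3 counts in 8 of 30 libraries, Foxa3 in 9, 6330403K07Rik in 4, and Rbpjl and Ppp1r1b in 3 each. All 5 passed the filter on low counts in the DIO fit, and 4 of 5 in the fit of d10, where Chga did not.

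Scaled per length at its highest group mean, Ppp1r1b was the most abundant at 15.8 CPM per kb in DIO d7, followed by Foxa3 with 7.36 in DIO d7. Chga reached 1.80 CPM per kb in Lean d5, 6330403K07Rik 1.48 in Lean d5 and Rbpjl 0.77 in Lean d10.

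**Figure D1:**
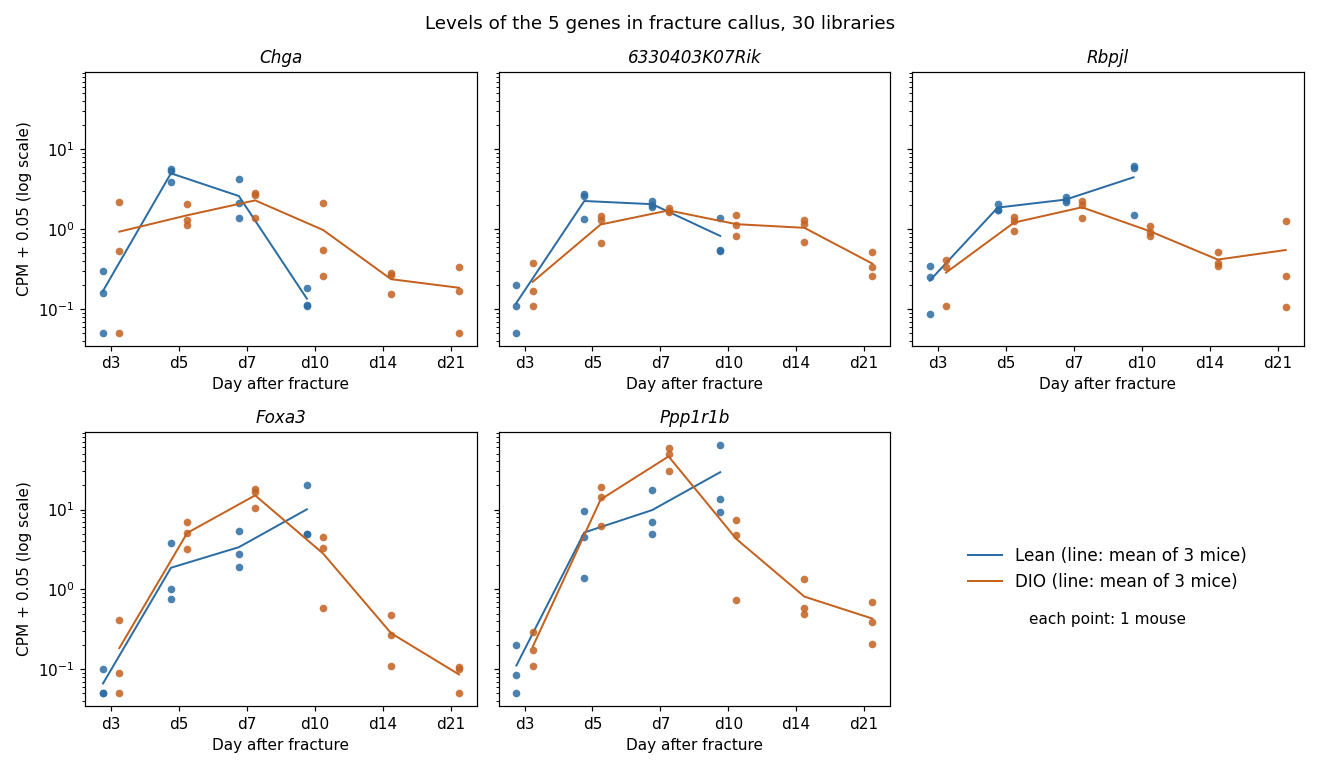
CPM plus 0.05 on a log scale for each of the 5 genes by day after fracture, with 1 point per mouse and lines through the means of 3 mice, blue for Lean and orange for DIO. In DIO all 5 means were highest on d7, whereas in Lean Chga and 6330403K07Rik were highest on d5 and Rbpjl, Foxa3 and Ppp1r1b on d10.

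Chga, the granule protein gene, was high in Lean callus on d5 and d7 only. The 3 Lean mice of d3 had 0, 0.108 and 0.250 CPM and those of d5 had 5.35, 3.82 and 5.69 CPM. On d7 they had 2.11, 1.31 and 4.23 CPM, and on d10 0.0626, 0.134 and 0.0600 CPM, which is 1 or 2 reads per library. The fitted rise from d3 to d5 was 5.29 on the log2 scale, and from d7 to d10 Chga dropped by 4.80 on the log2 scale. In order of level, d5 and d7 overlapped, as did d3 and d10, and every mouse of the first pair was above every mouse of the second.

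In DIO callus Chga followed no such sharp wave. The d3 mice had 2.16, 0 and 0.484 CPM, the d5 mice 2.01, 1.25 and 1.07 CPM, and the d7 mice 1.32, 2.79 and 2.62 CPM. The d10 mice had 2.07, 0.505 and 0.210 CPM, the d14 mice 0.220, 0.236 and 0.106 CPM, and the d21 mice 0.288, 0.117 and 0 CPM. DIO d3 mouse 1, with 36 reads, was as high as the d5 and d7 mice, and the d3, d5, d7 and d10 groups overlapped. In edgeR's quasi-likelihood test over 16995 genes Chga did not pass at d5 (log2 fold change 0.76, SE 0.93, adjusted p = 0.784) or at d7 (1.38, SE 0.93, adjusted p = 0.394). Without DIO d3 mouse 1 the d7 value was 3.31, with an adjusted p of 0.114. On d5 the Lean mice were all above the DIO mice, by 1.76 on the log2 scale. On d10 all 3 DIO mice were above the Lean mice, but DIO mouse 3 held 3 counts, the limit of detection. Lean mouse 2 held 2 counts. Chga did not pass the filter on low counts for d10, so this difference was not tested.

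6330403K07Rik was near the detection limit on d3 and at a few CPM afterwards. Lean mice had 0.0593, 0 and 0.150 CPM on d3, 2.59, 2.75 and 1.28 CPM on d5, 2.23, 1.85 and 1.94 CPM on d7, and 0.501, 1.34 and 0.480 CPM on d10. The d5 group overlapped those of d7 and d10, and every mouse from d5 on was above every d3 mouse.

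DIO mice had 0.120, 0.328 and 0.0605 CPM of 6330403K07Rik on d3, 0.625, 1.25 and 1.41 CPM on d5, and 1.57, 1.62 and 1.81 CPM on d7. On d10 they had 0.767, 1.08 and 1.47 CPM, on d14 1.10, 1.24 and 0.634 CPM, and on d21 0.288, 0.470 and 0.207 CPM. The gene rose early and was still above d3 on d14. Against d3 it was higher by 2.53 (log2, SE 0.57) on d5 with an adjusted p of 0.0263 in the edgeR test, by 3.15 (SE 0.56) on d7 with 0.00198, by 2.56 (SE 0.57) on d10 with 0.00452 and by 2.40 (SE 0.57) on d14 with 0.00498. It fell by 1.61 on the log2 scale (SE 0.54) from d14 to d21 (adjusted p = 0.0440). The d5 call was lost in 5 of 14 alternatives. Among these were the fits without DIO d3 mouse 1 (adjusted p = 0.144), DIO d3 mouse 3 (0.103), DIO d5 mouse 2 (0.0958) or DIO d5 mouse 3 (0.10). The fall to d21 was lost without any one of 5 of the 6 mice, the exception being DIO d21 mouse 2, with adjusted p from 0.0558 without DIO d14 mouse 3 to 0.145 without DIO d21 mouse 1.

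Rbpjl, the pancreatic PTF1 subunit, rose more slowly in Lean callus and did not fall by d10. Lean mice had 0.297, 0.0358 and 0.200 CPM on d3, 1.70, 2.03 and 1.71 CPM on d5, and 2.17, 2.27 and 2.46 CPM on d7. On d10 they had 5.70, 6.10 and 1.44 CPM, so that mice 1 and 2 held the highest values of the series and mouse 3 was below every d5 and d7 mouse.

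DIO mice had 0.0600, 0.287 and 0.363 CPM of Rbpjl on d3, 1.2, 1.37 and 0.901 CPM on d5, and 1.95, 1.32 and 2.22 CPM on d7. On d10 they had 0.767, 0.865 and 1.05 CPM, on d14 0.330, 0.295 and 0.475 CPM, and on d21 0.0576, 1.23 and 0.207 CPM. The groups d5 and d7 overlapped, d10 overlapped d5, and d21 spanned the low days because mouse 2 held 21 of its 26 reads. Rbpjl was higher on d7 than on d3 by 2.90 (log2, SE 0.72, edgeR adjusted p = 0.0202). This call was lost without DIO d3 mouse 1 (adjusted p = 0.0965) or DIO d3 mouse 2 (adjusted p = 0.0763). The d5 difference of 2.24 (SE 0.72) had an adjusted p of 0.142, although the groups did not overlap.

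The Rbpjl reads amounted to 0.261% to 4.85% of those of Matn4, the cartilage gene on the opposite strand. In DIO the share was 0.639% to 1.29% on d7, when Matn4 was at 102 to 347 CPM, and 1.64% to 4.85% on d21, when Matn4 averaged 11.4 CPM. The log2 levels of the pair correlated at r = 0.86 over 18 DIO libraries and at r = 0.94 over 12 Lean libraries, which share the days, so the values are a description. The part of Matn4 reads in the Rbpjl counts was not tested.

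Foxa3 began at almost nothing. Lean mice had 0, 0 and 0.05 CPM on d3 (1 read in all), 0.706, 0.956 and 3.79 CPM on d5, and 1.87, 2.74 and 5.37 CPM on d7. On d10 they had 20.2, 4.89 and 4.92 CPM, where mouse 1 was the highest of the series and the other two lay within the d7 range. The Lean order was d10, d7, d5 and d3, where d10 overlapped d7 and d7 overlapped d5, and only d3 stood below.

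In DIO callus Foxa3 rose and fell within the days sampled. The d3 mice had 0, 0.0410 and 0.363 CPM, the d5 mice 6.92, 5.07 and 3.15 CPM, and the d7 mice 18.1, 10.4 and 16.5 CPM. The d10 mice had 0.537, 4.54 and 3.22 CPM, the d14 mice 0.220, 0.0590 and 0.423 CPM, and the d21 mice 0.0576, 0 and 0.0518 CPM, which is 2 reads in all. All d7 mice were above all other DIO mice, d5 and d10 overlapped, and d14 overlapped d3. Against d3, Foxa3 was higher by 5.27 (log2, SE 0.82) on d5 with an edgeR adjusted p of 0.00232, by 6.83 (SE 0.82) on d7 with 5.97e-05, and by 4.40 (SE 0.83) on d10 with 0.00139. From d7 to d10 it fell by 2.43 on the log2 scale (SE 0.60, adjusted p = 0.0111).

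Ppp1r1b, the phosphatase inhibitor gene, had the widest range of the 5. Lean mice had 0, 0.0358 and 0.150 CPM on d3, 1.35, 4.42 and 9.58 CPM on d5, and 6.97, 4.89 and 17.6 CPM on d7. On d10 they had 65.0, 13.5 and 9.37 CPM, and again mouse 1 alone was above the d7 range. The DIO mice had 0.0600, 0.123 and 0.242 CPM on d3, which all Lean and DIO mice of d5 to d10 exceeded.

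On d5 the DIO mice had 19.2, 14.4 and 6.20 CPM of Ppp1r1b and on d7 49, 30.4 and 58.9 CPM. They had 0.690, 7.28 and 4.69 CPM on d10, 0.440, 0.531 and 1.32 CPM on d14, and 0.345, 0.646 and 0.155 CPM on d21. As for Foxa3, the d7 mice were above all other DIO mice and d10 mouse 1 was the lowest of its group. The rise over d3 was 6.51 (log2, SE 0.81) on d5 with an edgeR adjusted p of 0.000554, 8.30 (SE 0.82) or 315-fold on d7 with 9.73e-06, and 4.86 (SE 0.84) on d10 with 0.000666. From d7 to d10 it fell by 3.44 on the log2 scale (SE 0.58, adjusted p = 0.000753). On d14 every mouse was still above every d3 mouse, with a difference of 2.41 (SE 0.96, adjusted p = 0.0743) that passed with DESeq2 (adjusted p = 0.0304).

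**Figure D2:**
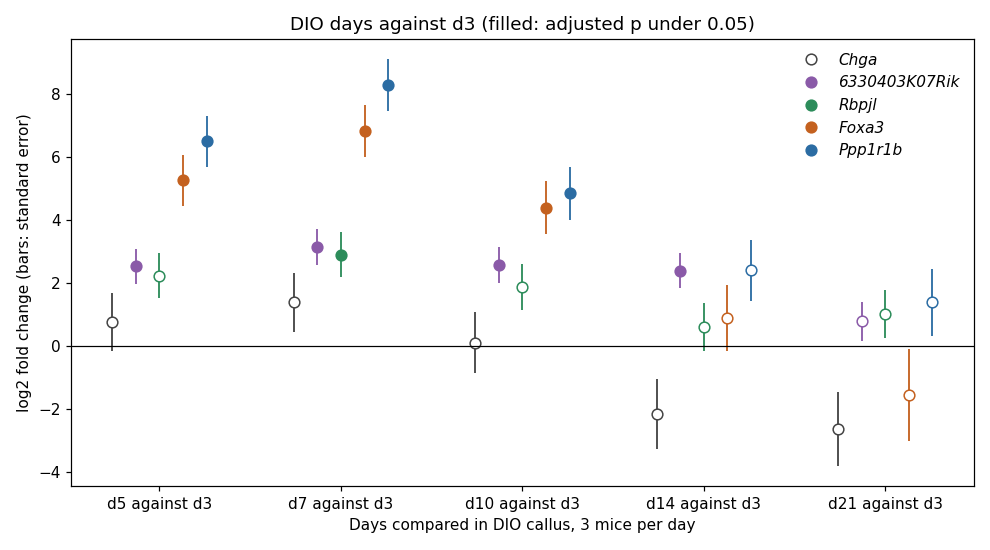
Log2 fold change of each gene in DIO callus on d5, d7, d10, d14 and d21 against d3, with 3 mice per day, bars for the standard error and filled points for an adjusted p under 0.05. Foxa3 and Ppp1r1b stood at 6.83 and 8.30 on d7, 6330403K07Rik was filled from d5 to d14, and Chga was open on every day.

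Counted together in DIO, 3 of 5 genes were higher on d5 than on d3, where 1.39% of all genes tested were higher, and 4 of 5 on d7, against 4.67%. On d10 3 of 5 were still higher than on d3, against 11.1% of genes, and on d14 1 of 5, against 13.8%. None of the 5 differed between d21 and d3 in the edgeR test, where 45.3% of genes did. At an unadjusted p under 0.05 Chga did (0.0382), and with DESeq2 it was lower on d21 (-2.71, adjusted p = 0.0287). The edgeR difference of -2.63 was -0.72 (adjusted p = 0.688) without DIO d3 mouse 1, which held 36 of the Chga reads of its group, against 0 and 8 in the others. From d7 to d10, 2 of 5 fell, against 7.01% of genes, while 4 of 5 were lower on d10 with no overlap between the mice, against 13.6%. From d14 to d21, 1 of 5 fell, against 9.03%. Over any of the 6 DIO days all 5 differed, as did 59.1% of genes, with adjusted p from 1.86e-07 for Ppp1r1b to 0.0255 for Chga. These DIO mice were not among those used to choose the genes.

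The day of the highest mean differed between the diets. In DIO every one of the 5 had its highest mean on d7, and in Lean this held for none. In Lean the mice of the highest and the next highest day overlapped for all 5, and in DIO for Chga and Rbpjl. The difference in day is a description, since Lean d5 and d7 entered the choice. A fall by d10 was seen for Chga and 6330403K07Rik in Lean callus, whereas Rbpjl, Foxa3 and Ppp1r1b had means of 4.41, 10.0 and 29.3 CPM on Lean d10, the last Lean day analysed. Without mouse 1 these means were 3.77, 4.91 and 11.4 CPM, beside 2.30, 3.33 and 9.80 CPM on Lean d7. On d7, Foxa3 was 2.18 and Ppp1r1b 2.24 higher in DIO than in Lean on the log2 scale, with no overlap, which is a description since the Lean d7 mice entered the choice. Whether the change from d7 to d10 differed between diets was not tested, because Lean d7 was used to choose the genes.

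On d10, which the choice did not use, Foxa3, Ppp1r1b and Rbpjl were lower in DIO than in Lean. For Foxa3 and Ppp1r1b this was the reverse of the order described for d7. The Rbpjl differences of d5 (-0.64, no overlap) and d7 (-0.31, SE 0.38, mice overlapping) are a description, since those Lean mice entered the choice. Rbpjl averaged 0.894 CPM in DIO and 4.41 CPM in Lean, a difference of -2.28 (log2, DIO over Lean, SE 0.58). Foxa3 differed by -1.83 (SE 0.76) and Ppp1r1b by -2.77 (SE 0.88). These 3 of the 4 genes tested were lower in every DIO mouse than in every Lean mouse, as were 7.31% of all genes tested. 6330403K07Rik differed by 0.53 (SE 0.60) and overlapped. None passed the edgeR test after adjustment over 15341 genes (adjusted p = 0.686 for each of the 3), and 0 genes (0%) passed in all, where 1082 had an unadjusted p under 0.05 and DESeq2 called 47. The adjusted p over the alternatives ran from 0.0569 to 0.913 for Rbpjl, from 0.278 to 1.00 for Foxa3 and from 0.115 to 0.913 for Ppp1r1b. Without Lean d10 mouse 1, Foxa3 differed by -0.82 and Ppp1r1b by -1.43, and Rbpjl by -2.06.

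Cartilage genes moved with Rbpjl, Foxa3 and Ppp1r1b. Of 20 cartilage genes, among them Col2a1, the main collagen of cartilage, and Acan, its main proteoglycan, 15 were higher on DIO d5 than on d3 and all 20 on d7. From d7 to d10 17 of 20 fell. Their median log2 change on d7 was 6.04, against 0.03 over all genes tested. Cnmd, a cartilage membrane protein gene, rose by 9.31 (SE 1.11, adjusted p = 5.52e-05), Ucma, of the upper growth plate, by 10.5 (SE 1.29, adjusted p = 7.19e-05), Snorc by 9.64 (adjusted p = 7.83e-05) and Matn3 by 7.34 (adjusted p = 9.77e-05). The summed level of the 20 was 1288 to 2834 CPM on DIO d3, 24757 to 53448 on d7, 5923 to 11372 on d10 and 1877 to 3359 on d21.

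On d10 the 20 cartilage genes had a median log2 difference of -2.67 (DIO over Lean), beside 0.02 for all genes (-1.66 without Lean d10 mouse 1, where 1 of 20 passed), and with all mice 0 of 20 passed the edgeR test, while 18 were lower at an unadjusted p under 0.05. Foxa3, Ppp1r1b and Rbpjl were lower in the same DIO mice as these. Per 10000 CPM of the cartilage list, Foxa3 stood at 2.28 to 2.71 CPM in Lean d10 and at 0.906, 3.99 and 4.06 CPM in DIO d10. Ppp1r1b stood at 5.15 to 7.34 in Lean d10 and at 1.17, 5.91 and 6.40 in DIO d10. By this measure the diets overlapped for both genes on d10. Rbpjl overlapped too, at 0.644 to 2.88 in Lean d10 and 0.761 to 1.32 in DIO d10. As a description, Ppp1r1b on d7 stood at 6.07 to 7.94 in Lean and 10.7 to 12.3 in DIO, and it overlapped on d5. Foxa3 overlapped on d7, and on d5 stood at 1.86 to 2.54 in Lean and 2.58 to 3.12 in DIO. Rbpjl was lower in DIO on d7 (0.415 to 0.534, Lean 1.11 to 2.81) and d5 (0.544 to 0.785, Lean 1.14 to 4.55). Chga stood at 3.81 to 14.3 on Lean d5 and at 0.00708 to 0.0633 on Lean d10, so it fell while the cartilage list rose. How far the amount of cartilage in a callus sets the 3 levels was not tested.

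**Figure D3:**
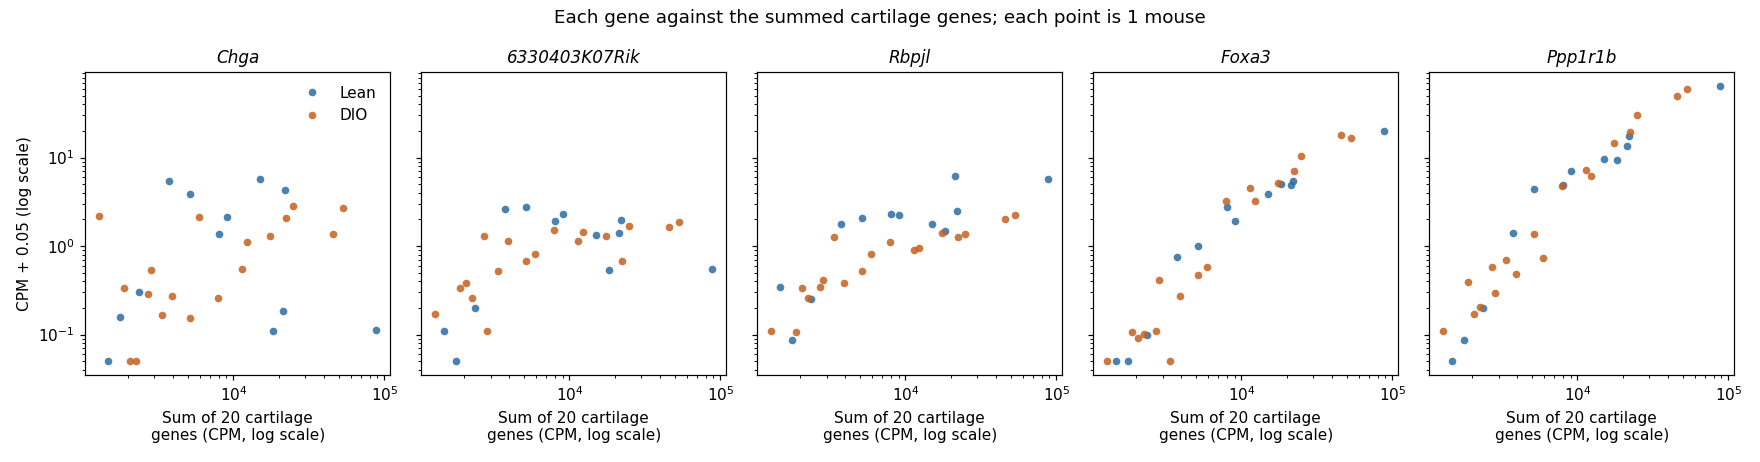
CPM plus 0.05 of each gene against the summed CPM of 20 cartilage genes, both on log scales, with 1 point per mouse, blue for Lean and orange for DIO. Foxa3 (0 to 20.2 CPM) and Ppp1r1b (0 to 65.0 CPM) were mostly higher at higher cartilage sums in both diets, but not in a fixed ratio. Per 10000 CPM of the cartilage list, Foxa3 stood at 3.09 to 4.19 on DIO d7 and 0.216 to 0.823 on DIO d14. Ppp1r1b stood at 10.7 to 12.3 and at 1.12 to 2.57 on these days. Chga was at 0.0600 to 0.134 CPM in the Lean d10 mice, whose cartilage sums were 18179, 21171 and 88460 CPM.

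The genes with the most similar pattern over the 18 DIO libraries, by Pearson's r of log2 CPM among 14841 genes with a mean of at least 1 CPM, were the following. For Ppp1r1b they were Cnmd (r = 0.98), Foxa3 (0.97), Matn1 (0.96), Col2a1 (0.96) and Ncmap (0.96). For Foxa3 they were Fxyd3 (0.98), Col9a1 (0.97), Susd5 (0.97), Ppp1r1b (0.97) and Gdf5 (0.96), and for Rbpjl Col9a2 (0.93), Col2a1 (0.93), Cnmd (0.92), Meltf (0.91) and Col9a3 (0.90). All such values share the 6 days.

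The other two had looser likenesses. For 6330403K07Rik the first genes were Mdk (0.90), a heparin-binding growth factor gene, Mpped2 (0.89), Sgce (0.87), Scin (0.85) and Col11a1 (0.83). For Chga they were Wdr66 (0.84), Pnldc1 (0.82), Pmp22 (0.81), Stk32b (0.80) and Prnp (0.79). Foxa3 and Ppp1r1b correlated at r = 0.97 over 18 DIO and 0.99 over 12 Lean libraries, while Chga and Foxa3 correlated at 0.64 and 0.21. Over all 30 libraries the first gene of Chga was Hsd11b2 (r = 0.77), and 0 genes exceeded r = 0.8 with it, against 4 over the DIO libraries. The first genes of Foxa3 and Ppp1r1b over 30 libraries were each other (r = 0.97), which also differed from the first genes in DIO. Likeness over the Lean libraries alone was not ranked.

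The FOXA family gave a second gene of the same shape. Foxa2 had 0 counts in all 3 DIO mice of d3, 1.5 ± 0.969 CPM on d5 and 3.16 ± 1.53 CPM on d7 (SD, n = 3), or at least 19.6-fold more on d7 than 3 counts per d3 library. It rose on d5 (edgeR adjusted p = 0.00572) and on d7 (adjusted p = 0.000377), was at 1.06 ± 0.126 CPM on d10, and in Lean d10 reached 16.8, 2.82 and 2.52 CPM. Foxa1 had 0 counts in 30 libraries. Of 17 hypertrophy and FOXA genes, 16 were tested, and 4 rose on DIO d7, against 0 that fell, with a median change of 0.40. These were Col10a1, the collagen of hypertrophic cartilage (10.6, SE 1.34, adjusted p = 0.00011), Foxa2, Ihh, a signal of prehypertrophic chondrocytes (4.30, SE 0.71, adjusted p = 0.000933), and Panx3, a channel gene (1.92, SE 0.44, adjusted p = 0.0129). From d7 to d10 0 of the 16 passed as lower in the edgeR test and 2 passed as higher. At an unadjusted p under 0.05, 4 were lower and 5 were higher. Foxa2 (-1.56, adjusted p = 0.141) and Col10a1 (-1.07, adjusted p = 0.489) did not pass, whereas Foxa3 fell. Whether Foxa3 fell more than these was not tested.

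Among granins and granule genes, Scg2, which encodes secretogranin II, was highest on d7 in DIO callus, the day of the highest Chga mean there. DIO mice had 1.43, 1.01 and 0.625 CPM in falling order on d5 and 1.69, 1.61 and 1.38 CPM on d7, and 1 read in all 3 libraries on d10 and none on d14 and d21. It rose on d7 by 4.30 (log2, SE 0.81, adjusted p = 0.00598) and fell to d10 (adjusted p = 0.00212). Lean mice had 0 reads on d3, 0.706, 0.179 and 0.521 CPM on d5, 0.293, 0.358 and 2.34 CPM on d7, and 0.438, 0.201 and 0.240 CPM on d10. These 3 Lean days overlapped, and mouse 3 alone stood out on d7. Of 25 genes of this list, 12 were tested, and 3 rose on DIO d7 with a median of 0.26 over the list. The other two were Cpe, a prohormone-processing carboxypeptidase that many cells make (1.95, SE 0.25, adjusted p = 0.000113), and Ddc, a decarboxylase of amine synthesis (1.43, SE 0.42, adjusted p = 0.0474). The Ddc call was lost without any of 5 of the 6 mice, the exception being DIO d7 mouse 1, with adjusted p up to 0.225 without DIO d7 mouse 2. Chgb, the other main chromogranin gene, stayed at 0.0775 to 0.24 CPM in group means.

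**Figure D4:**
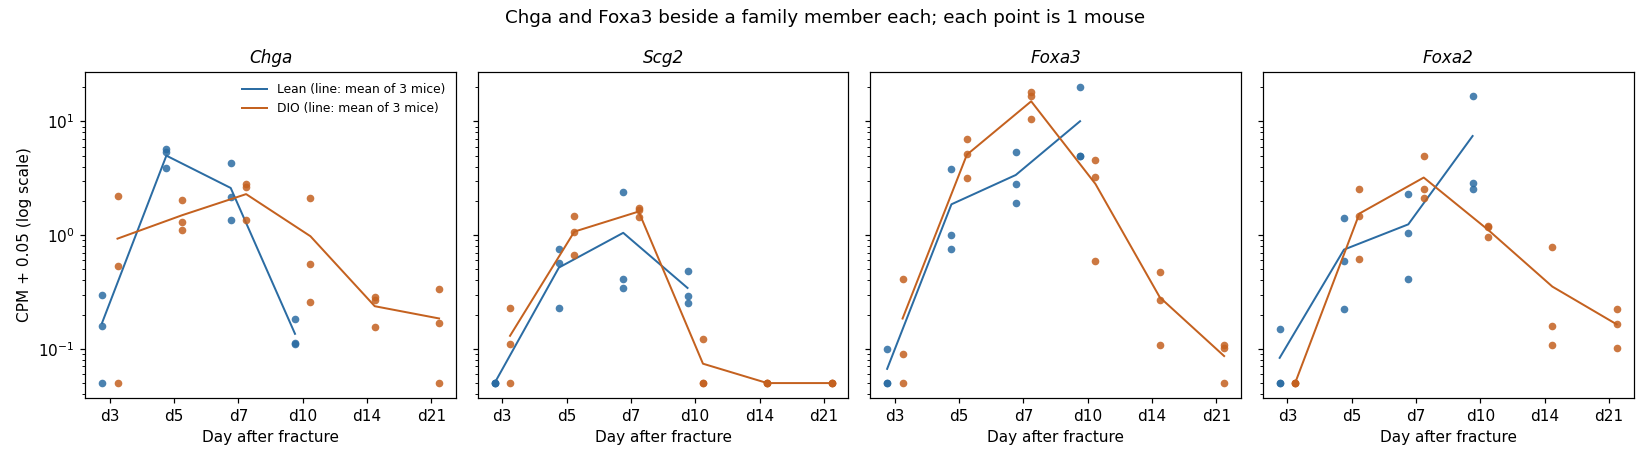
CPM plus 0.05 on a log scale by day for Chga, Scg2, Foxa3 and Foxa2, with 1 point per mouse and lines through the means of 3 mice, blue for Lean and orange for DIO. Scg2 was at 1.38 to 1.69 CPM on DIO d7 and at 0 on d14 and d21, and Foxa2 followed Foxa3, with its highest mean on d7 in DIO and on d10 in Lean.

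Ptf1a, the pancreatic partner of Rbpjl, had 0 counts in 30 libraries, and Rbpj itself was at 48.2 ± 3.88 CPM on DIO d3 and 41.6 ± 2.29 CPM on d7 (SD, n = 3; log2 change -0.21, edgeR adjusted p = 0.322). Of 20 genes of the RBPJ, PTF1 and Notch list, 19 were tested and 0 passed the edgeR test on d7 or d5, and their median on d7 was -0.21. At an unadjusted p under 0.05, 2 were lower on d7 and 3 were higher on d5. Of 16 pancreatic acinar enzyme genes 4, Amy2a5, Cela2a, Clps and Gp2, had no count, and 3 passed the filter, of which 0 passed the edgeR test on d7 and 1 was higher at an unadjusted p under 0.05. Of 20 dopamine, protein kinase A and phosphatase genes 17 were tested, and 1 rose on d7, the calcineurin gene Ppp3ca (0.44, SE 0.13, adjusted p = 0.0409). Ppp1r1a, a paralog of Ppp1r1b, did not pass on d7 (-0.66, adjusted p = 0.392), and Ppp1r1c held 6 counts in 30 libraries.

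Neuronal and epithelial markers, which mark cells that these genes are known from, did not pass the test as higher on DIO d7. The summed level of 15 neuron and neuroendocrine markers was 69.9 to 89.5 CPM on DIO d3 and 55.6 to 62.8 CPM on d7, and of 7 tested 0 rose and 1, the tubulin gene Tubb3, fell (-1.21, SE 0.31, adjusted p = 0.0227). Epithelial markers summed to 6.72 to 7.95 CPM on d3 and 5.95 to 7.93 CPM on d7, and 0 of 4 passed the edgeR test, with 0 at an unadjusted p under 0.05. On d5 Epcam, an epithelial adhesion gene, was higher in every DIO mouse than on d3 (1.21, unadjusted p = 0.00216) but did not pass after adjustment (edgeR adjusted p = 0.0831). Muscle markers summed to 11108 to 19753 CPM on d3 and 7428 to 19027 CPM on d7, with 1 of 15 higher, the developmental myosin gene Myh8 (4.56, SE 0.94, adjusted p = 0.00639).

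Schwann cell markers summed to 141 to 198 CPM on d3 and 247 to 270 CPM on d7, and 2 of 9 rose, S100b (1.78, SE 0.21, adjusted p = 4.78e-05) and Pmp22 (0.95, SE 0.14, adjusted p = 0.000481). S100b is also made by chondrocytes. The part of Schwann cells in the levels of the 5 genes was not tested. Osteoblast markers summed to 25682 to 48262 CPM on d3, 35736 to 52722 on d7 and 71474 to 77332 on d10, with 4 of 10 higher on d7, and all 3 mice of d10, when Foxa3 and Ppp1r1b had fallen, were above those of d7. Leukocyte markers summed to 2399 to 2696 CPM on d3 and 1919 to 6685 CPM on d7, with 0 of 15 higher and 3 lower, including the macrophage gene Adgre1 (-1.29, SE 0.24, adjusted p = 0.00278). The median log2 change of the 15 on d7 was 0.54, against 0.03 over all genes tested. At an unadjusted p under 0.05, 2 were higher and 4 were lower.

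Among the nearest protein-coding genes on either side, Slpi, a protease inhibitor gene 14046 bases before Rbpjl, also rose on DIO d7 (1.70, SE 0.22, adjusted p = 0.000135) and fell to d10 (-1.86, SE 0.23, adjusted p = 4.16e-05). Sdc4, 8799 bases after Rbpjl, did not pass on d7 (0.60, adjusted p = 0.114) and fell to d10 (-0.77, adjusted p = 0.0311). Golga5, 57062 bases before Chga (0.36, adjusted p = 0.124), and Stard3, 572 bases after Ppp1r1b (-0.40, adjusted p = 0.171), did not pass either. Nearer to Chga, Itpk1 at 3554 bases averaged 17.5 CPM on DIO d3 and 20.2 CPM on d7. Sympk, 839 bases from Foxa3, averaged 135 CPM and 106 CPM on these days. Of 9 neighbours tested, 3 were higher and 1 was lower on d7 at an unadjusted edgeR p under 0.05. The remaining neighbours are not named.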

How the data were processed

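The callus RNA was prepared with a stranded poly(A) kit. The authors trimmed the reads with BBDuk, aligned them to GRCm38 with HISAT2 2.1.0 and counted reads per gene with HTSeq. The deposited values are these raw counts. The version and strand option of HTSeq were not given in the sources used here, and the authors tested pairs of days with DESeq2. Intervals of counts cover counting error only.

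The counts were tested with edgeR 4.0.16 (R 4.3.3) by the quasi-likelihood test, with TMM factors, the filterByExpr filter and Benjamini-Hochberg adjustment at 0.05, in 1 fit of 18 DIO libraries and 1 fit of the 6 libraries of d10. The genes and the lists were chosen with earlier results of these data known. Lean days and diet differences on d3, d5 and d7 entered that choice and were not tested. From each list up to 4 genes with the smallest adjusted p on DIO d7 are named, plus family members, defining markers and some of the nearest neighbours. Some genes with other p-values (Ddc, Col2a1, Acan, Ppp3ca, Adgre1, Epcam) are named because a sentence counts or explains them, after their values were seen. Alternatives used other scaling, filters, libraries, DESeq2 1.42.0 and each mouse left out. All 30 pairs of libraries within a group differed by more than sampling noise (chi-square per degree of freedom 13.6 to 160). On simulated counts of the d7 comparison, over 16995 genes, edgeR found 162 of 200 changed genes with 10 false calls. DESeq2 found 164 with 39 false calls. On simulated counts of the d10 diet comparison edgeR found 155 of 200 with 9 false calls and DESeq2 156 with 23. The simulated counts gave each gene a spread set by its level alone, and the changed genes had fixed fold changes. They held no gene-specific spread and no outlying library, so these numbers do not measure detection or false calls in the real comparisons. A few single marker genes are not reported here.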

Additional observations from a re-analysis of the deposited data

How the results depend on the processing

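Replicate numbers did not pair the mice: same-numbered libraries correlated between -0.195 and 0.148 in 24 pairs, with 4 over 0.1. The fit with the replicate block called 3 of the 5 genes on d5, 4 on d7, 3 on d10 and 1 on d14 against d3, as did the fit without it, and it changed no call for the 5 genes. Depth limits values near 0, since 3 to 9 libraries of each gene held fewer than 3 counts. Where a value below moved, the cause was not tested.

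With no filter but 1 count, 478 genes differed on d5 against d3 (285 in the report's fit) and 29 between the diets on d10 (0), 2 of the 5 genes were higher on d14 (1), 1 was lower on d21 than on d3 (0) and 0 fell from d14 to d21 (1). With DESeq2 the numbers were 575, 47, 2 and 1, and Ppp1r1b was the second gene on d14 (adjusted p = 0.0304). With all 30 libraries in 1 fit, 3 genes differed between the diets and 1 of the 5 was lower on d21 than on d3. With only the 6 libraries compared, 818 genes differed on d5, 747 on d7 (1240) and 1676 from d14 to d21 (3335), where 0 of the 5 fell.

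With each mouse left out in turn, 90 to 216 genes differed from d3 on d5, 592 to 1621 on d7, 2184 to 3685 on d10, 3130 to 3999 on d14 and 6072 to 7921 on d21. The count ran from 1510 to 2495 for d10 against d7, from 1285 to 4070 for d21 against d14 and from 0 to 10 between the diets on d10. Of the 5 genes, 2 to 3 were higher on d5 and 3 to 4 on d7, 0 to 1 were lower on d14 and on d21 than on d3, 0 to 1 fell from d14 to d21, and 4 to 5 differed on any day. The differences that changed sign did not pass the test. On d10 against d3 Chga ran from -1.25 to 2.04 on the log2 scale, with -0.52 without DIO d3 mouse 2, -0.17 without DIO d3 mouse 3 and -1.25 without DIO d10 mouse 1. On d21 against d3 Rbpjl ran from -0.82 (without DIO d21 mouse 2) to 1.51, and Foxa3 from -2.10 to 0.48 (without DIO d3 mouse 3). On d21 against d14 Rbpjl ran from -1.40 (without DIO d21 mouse 2) to 0.92, and Chga from -1.62 to 0.12 (without DIO d21 mouse 3).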
